A study of Mus musculus with 15 samples.

Results

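The 9 genes described here carry the signal from the insulin receptor to glucose uptake through GLUT4, out of 26301 gene numbers counted in each library. They are named by their roles in the pathway: Insr (the receptor), Irs1 and Irs2 (its substrates), Pik3r1 (a regulatory subunit of PI3K), Akt1 and Akt2 (kinases), Tbc1d4 (AS160), Slc2a4 (GLUT4) and Cav1 (caveolin 1). All 9 passed the filter on low counts in both sets of libraries, although Slc2a4 passed it only through the groups in which it was high.

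RNA was sequenced on day 2 of differentiation of 3T3-L1 cells, a mouse preadipocyte line, in 5 groups of 3 libraries. In the knockdown set, cells infected with a retrovirus that expressed no shRNA (sh-Empty) were compared with cells expressing an shRNA against Jmjd1a (sh-Jmjd1a, JMJD1A-KD). JMJD1A, encoded by Kdm3a, is a demethylase of H3K9. In the rescue set, JMJD1A-KD cells carried an additional vector for LacZ, for shRNA-resistant JMJD1A(WT) or for JMJD1A(Mut), a mutant that lacks iron binding. Every group received insulin (1.67 uM), dexamethasone (1 uM) and IBMX (115 ug/mL), so no group was without insulin. The lines were populations kept by antibiotic selection, and the labels do not say whether the replicates were separate cultures. The p-values therefore measure the spread between these libraries, which may be technical.

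Insulin binding activates the receptor kinase, which phosphorylates the IRS proteins. These recruit PI3K, whose lipid product allows Akt to be activated at the membrane. Akt2 phosphorylates AS160, a Rab GTPase-activating protein, and the GLUT4 vesicles then move to the plasma membrane. In adipocytes GLUT4 appears late in differentiation, and caveolae, the membrane pits built on caveolin 1, hold a share of the insulin receptors. These steps are regulated mostly by phosphorylation and traffic, which RNA counts do not measure.

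Total counts ranged from 11437058 to 25523148 (median 12916162), with the highest in JMJD1A(WT) replicate 3. Levels are in CPM (counts relative to the library total, TMM-scaled over the 15 libraries) and, where genes are compared with each other, as RPKM, which also divides by exon length. Kdm3a was at 174 ± 7.36 CPM (SD, n = 3) in sh-Empty, 131 ± 5.74 in sh-Jmjd1a, 119 ± 2.66 with LacZ, 1696 ± 69.0 with JMJD1A(WT) and 2212 ± 90.1 with JMJD1A(Mut) (SD, n = 3 each). The counts do not separate the introduced transcripts from the endogenous gene. All 8 fibroblast and preadipocyte markers (Col1a1, Col3a1 and Fn1 among them) and all 8 adipocyte markers (Pparg, Cebpa and Fabp4 among them) averaged over 1 CPM in every group. The summed fibroblast and preadipocyte markers were 18039 to 18345 CPM in sh-Empty, 26606 to 27244 in sh-Jmjd1a, 30580 to 31821 with LacZ, 31591 to 33065 with JMJD1A(WT) and 30672 to 31735 with JMJD1A(Mut). Col3a1, Fn1 and Col1a1 held most of this sum, and the list did not move as one. Dlk1, a preadipocyte marker, went the other way, with means of 841.8 CPM in sh-Empty, 502 in sh-Jmjd1a, 558.9 with LacZ, 754.8 with JMJD1A(WT) and 389.1 with JMJD1A(Mut), while Pdgfra stayed between 648.1 and 789.1 CPM and Pdgfrb between 79.8 and 100.7 CPM. The summed adipocyte markers were 5154 to 5232 CPM, 2665 to 2805, 3404 to 3485, 3892 to 4271 and 2628 to 2731 in the same order. Lpl held most of this sum in every group, with a mean of 3894 CPM in sh-Empty. Cd36 was highest with JMJD1A(WT), with means of 52.3 CPM in sh-Empty, 34.5 in sh-Jmjd1a, 66.8 with LacZ, 93.8 with JMJD1A(WT) and 32.0 with JMJD1A(Mut). Markers of macrophages, endothelium, muscle and epithelium summed to at most 4.0, 0.660, 0.0639 and 0.781 CPM. On the macrophage list Ptprc and Adgre1 were each at 0 in 4 of the 5 groups. Cd68 and Csf1r, on the same list, were counted in every group, with means of 1.10 to 2.19 and 0.170 to 0.586 CPM. The adipocyte sums did not overlap between sh-Empty and sh-Jmjd1a or among the groups of the rescue set. The fibroblast and preadipocyte sums did not overlap between sh-Empty and sh-Jmjd1a, but they overlapped among the groups of the rescue set. The part of either list in the results below was not tested. In such bulk samples, fewer cells of a type and less RNA per cell cannot be told apart.

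Slc2a4 is counted apart from the other 8 genes, since it passed the filter only where it was high and so had to differ between some groups. In JMJD1A-KD cells 7 of these 8 genes changed: Irs1, Akt1 and Cav1 rose and Irs2, Pik3r1, Akt2 and Tbc1d4 fell (adjusted p under 0.05, quasi-likelihood F test of edgeR, adjusted over all genes by Benjamini-Hochberg). This has to be read against a wide response, since 46.2% of the 12272 genes tested were called, 22.3% higher and 23.9% lower. JMJD1A(WT) against LacZ moved 1 of 8, with Cav1 lower (9.5% of 12557 genes called, 4.98% higher and 4.52% lower). JMJD1A(Mut) against JMJD1A(WT) moved 5 of 8: Cav1 was higher and Insr, Irs2, Akt2 and Tbc1d4 were lower (23.8% of all genes, 12.1% higher and 11.7% lower). Against LacZ, JMJD1A(Mut) cells had lower Irs2, Akt2 and Tbc1d4, 3 of 8 (9.24% of all genes, 4.78% higher and 4.46% lower). The 3 libraries of one group did not overlap those of the other for 7 of the 8 genes in the knockdown (53.2% of all genes tested), 3 for JMJD1A(WT) against LacZ (22.9%), 6 for JMJD1A(Mut) against JMJD1A(WT) (37%) and 3 for JMJD1A(Mut) against LacZ (25.3%). The median log2 fold changes of the 8 genes were -0.08, 0.03, -0.13 and -0.09 in these comparisons, where the median of all genes lay between -0.0032 and 0.0005. The last 3 comparisons share groups and are not independent of each other.

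**Figure D1:**
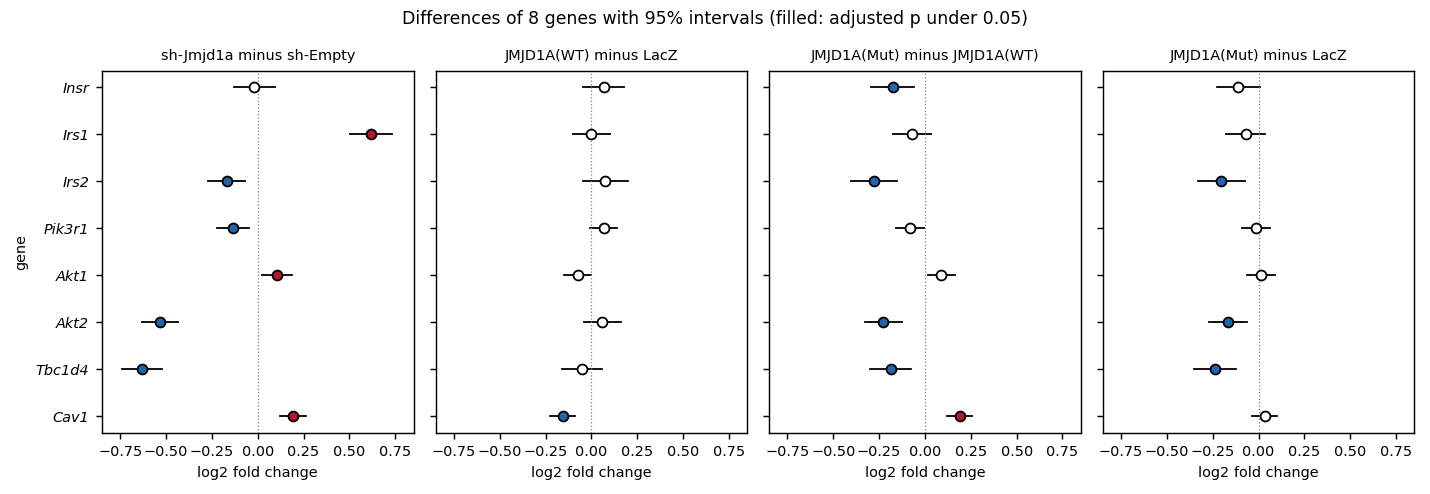
Log2 fold changes (x axis) of 8 of the 9 genes (y axis) in the 4 comparisons, with 95% confidence intervals as lines. Points are filled where the adjusted p is under 0.05, red for higher and blue for lower; Slc2a4 is left out because its changes of -2.71, 2.13, -3.20 and -1.06 lie off the axis. Irs1 stands to the right and Akt2 and Tbc1d4 to the left in the knockdown, and most intervals in the JMJD1A(WT) panel include 0.

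**Figure D2:**
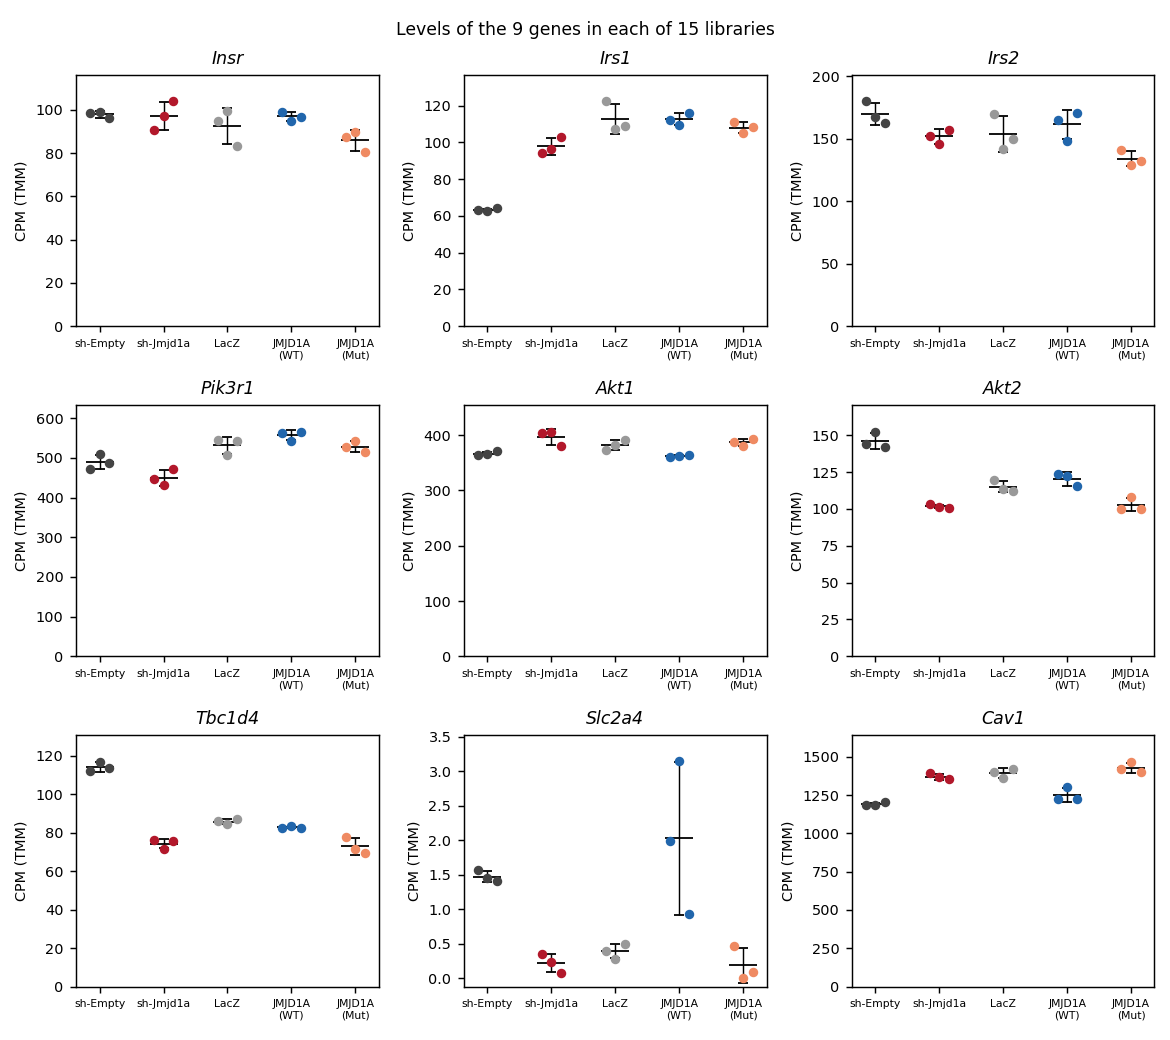
Level in CPM (y axis, from 0) of each of the 9 genes in the 15 libraries, by group (x axis). Points are libraries and bars the mean ± SD of 3. In Irs1 the 3 sh-Empty libraries, at 62.7 to 64.1 CPM, lie below all other libraries. In Slc2a4 the sh-Empty and JMJD1A(WT) libraries, at 0.935 to 3.15 CPM, lie above the rest, at 0 to 0.497 CPM.

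The receptor gene was not called in the knockdown. Insr (gene number 16337, chromosome 8 of mm9 from 3150922 to 3279617, minus strand) was at 98.4, 98.8 and 96.2 CPM in sh-Empty and at 90.5, 97.1 and 103.8 CPM in sh-Jmjd1a, so that the groups overlapped. The change was -0.02 on the log2 scale with a 95% interval of -0.13 to 0.09 (adjusted p = 0.811). It was at 94.7, 99.6 and 83.3 CPM with LacZ, 99.1, 94.8 and 96.8 with JMJD1A(WT) and 87.2, 89.8 and 80.6 with JMJD1A(Mut). The JMJD1A(Mut) libraries lay below all 3 JMJD1A(WT) libraries, with a log2 change of -0.18 (standard error 0.058, adjusted p = 0.0207). This call was lost without JMJD1A(Mut) replicate 3 (-0.13, adjusted p = 0.144), JMJD1A(WT) replicate 1 (-0.16, 0.0806) or JMJD1A(WT) replicate 3 (-0.17, 0.0663). Igf1r, the related IGF1 receptor, fell in JMJD1A-KD from 95.3 to 68.8 CPM (log2 fold change -0.48, standard error 0.083, adjusted p = 0.000176). The log2 ratio of Insr to Igf1r counts was 0.04 ± 0.085 in sh-Empty and 0.50 ± 0.18 in sh-Jmjd1a (SD, n = 3 each, no overlap).

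The substrates Irs1 and Irs2 moved in opposite directions in the knockdown. Irs1 (gene number 16367, chromosome 1 of mm9 from 82229676 to 82287991, minus strand) was at 63.2, 62.7 and 64.1 CPM in sh-Empty and 94.1, 96.3 and 103 CPM in sh-Jmjd1a. All 3 JMJD1A-KD libraries lay above the control, by 1.53-fold in the fit (log2 fold change 0.62, standard error 0.057, adjusted p = 4.45e-10). Irs2 (gene number 384783, chromosome 8 of mm9 from 10986980 to 11008458, minus strand) was at 180, 168 and 162 CPM in sh-Empty and 153, 146 and 157 CPM in sh-Jmjd1a. This smaller fall, without overlap, was -0.17 on the log2 scale (standard error 0.049, adjusted p = 0.00485), and it was no longer called without sh-Empty replicate 1 (-0.12, adjusted p = 0.0735).

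In the rescue set the IRS genes did not behave alike either. Irs1 stayed at 122, 107 and 109 CPM with LacZ, 112, 110 and 116 with JMJD1A(WT) and 111, 105 and 108 with JMJD1A(Mut). No comparison within this set called it, and the interval for JMJD1A(WT) minus LacZ was -0.10 to 0.10 on the log2 scale (adjusted p = 0.997). Of the fibroblast and preadipocyte markers, Col1a1, Col3a1 and Fn1 were lowest in sh-Empty and Dlk1 was highest there, and their part in the change of Irs1 was not tested. Irs2 was at 170, 142 and 150 CPM with LacZ, 165, 148 and 171 with JMJD1A(WT) and 141, 129 and 133 with JMJD1A(Mut). The JMJD1A(Mut) libraries were below both other groups without overlap. Irs2 fell by 0.28 on the log2 scale against JMJD1A(WT) (standard error 0.061, adjusted p = 0.00125) and by 0.20 against LacZ (standard error 0.062, adjusted p = 0.038). The second of these calls was lost without LacZ replicate 1 (-0.12, adjusted p = 0.176), LacZ replicate 3 (-0.22, 0.0656), JMJD1A(Mut) replicate 2 (-0.18, 0.175) or JMJD1A(Mut) replicate 3 (-0.19, 0.158). Gene models on the opposite strand overlap exons of Irs1 (Gm9747), Irs2 (9530052E02Rik) and Pik3r1 (Gm11016), and the strand setting of the counting was not given in the sources used here.

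The promoters of the IRS genes are shown because these genes moved in opposite directions. The sequences are the 250 bases before the RefSeq start in GRCm38.p6, read 5′ to 3′ on the gene's strand, a build other than the mm9 of the counts. Irs1 (chr1:82291440-82291689) and Irs2 (chr8:11008930-11009179) lie on the minus strand. Capitals mark matches to the motifs CACGTG (E box, a palindrome counted once) and GGGCGG (GC box).
Irs1: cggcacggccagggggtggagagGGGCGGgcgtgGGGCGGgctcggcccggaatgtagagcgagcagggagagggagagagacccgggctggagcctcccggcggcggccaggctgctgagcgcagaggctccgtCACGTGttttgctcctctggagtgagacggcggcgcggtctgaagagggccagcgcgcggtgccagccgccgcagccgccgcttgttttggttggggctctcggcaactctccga
Irs2: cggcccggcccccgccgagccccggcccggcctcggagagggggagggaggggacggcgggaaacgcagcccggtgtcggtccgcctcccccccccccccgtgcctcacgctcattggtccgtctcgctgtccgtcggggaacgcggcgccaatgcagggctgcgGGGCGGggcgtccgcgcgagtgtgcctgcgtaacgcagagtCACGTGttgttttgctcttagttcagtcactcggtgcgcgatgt
Both promoters were rich in GC, at 72.4% and 72.8%, where the median of 32851 mouse promoters of this length was 52.4%. Counted from the start, the E box began at -115 in Irs1 and at -44 in Irs2, and 6.02% of all promoters hold one. GC boxes are common, in 32.7% of all promoters on either strand, and stood at -227 and -216 in Irs1 and at -85 in Irs2. Neither window held AGGTCA, a DR1, TTGCNNAA, TGTTCT or TATAAA, which 14%, 0.0335%, 9.56%, 16.1% and 12.4% of all promoters hold. A match is a description of letters only.

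The ratio of the IRS genes within each library describes the same changes and is no further evidence of them. The log2 ratio of Irs1 to Irs2 counts was -1.51, -1.42 and -1.34 in sh-Empty and -0.70, -0.60 and -0.61 in sh-Jmjd1a, a difference of 0.79. It was -0.48, -0.40 and -0.46 with LacZ, -0.56, -0.43 and -0.56 with JMJD1A(WT) and -0.34, -0.30 and -0.29 with JMJD1A(Mut). The JMJD1A(Mut) libraries lay above both other groups of the rescue set, by 0.20 over JMJD1A(WT) and 0.13 over LacZ. JMJD1A(WT) minus LacZ was -0.07, with overlap.

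**Figure D3:**
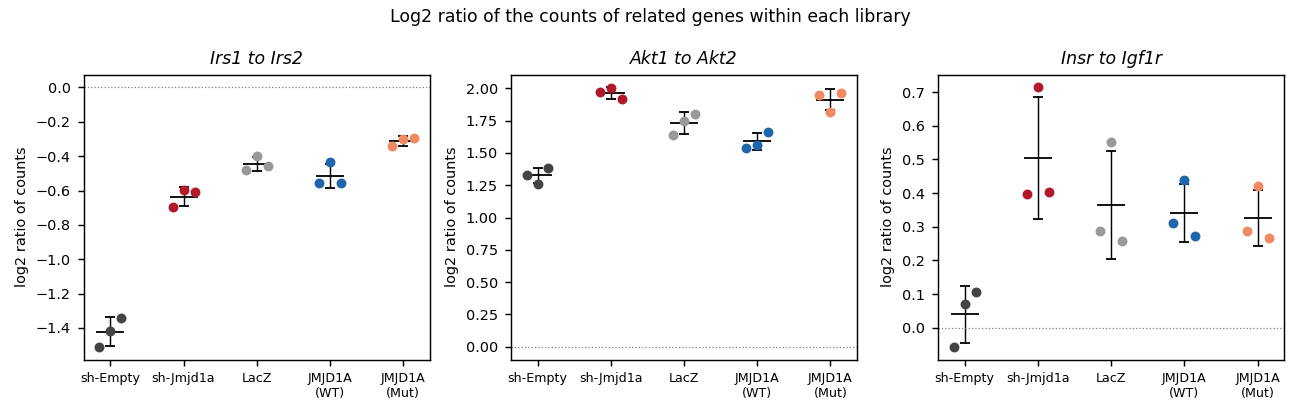
Log2 ratio of counts (y axis) within each library for Irs1 to Irs2, Akt1 to Akt2 and Insr to Igf1r, by group (x axis). Points are libraries and bars the mean ± SD of 3; only differences between groups can be read, since counts are not divided by gene length. The sh-Empty libraries lie lowest in all 3 panels, at -1.51 to -1.34, 1.26 to 1.38 and -0.06 to 0.11.

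Pik3r1, which encodes the regulatory subunits that bind IRS proteins and hold the catalytic p110, moved by small amounts. The gene (number 18708, chromosome 13 of mm9 from 102450716 to 102538172, minus strand) was at 472, 509 and 488 CPM in sh-Empty and 447, 431 and 471 CPM in sh-Jmjd1a. The groups did not overlap, with a log2 change of -0.13 (standard error 0.041, adjusted p = 0.00853). Without sh-Empty replicate 2 (-0.10, adjusted p = 0.111) or sh-Jmjd1a replicate 2 (-0.10, 0.0681) the call was lost. In the rescue set it was at 507 to 544 CPM with LacZ, 542 to 566 with JMJD1A(WT) and 514 to 543 with JMJD1A(Mut), and no comparison was called (adjusted p = 0.305, 0.104 and 0.879).

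The kinases Akt1 and Akt2 also moved apart. Akt1 (gene number 11651, chromosome 12 of mm9 from 113892032 to 113913095, minus strand), the widely expressed form, was at 364, 366 and 371 CPM in sh-Empty and 405, 406 and 380 CPM in sh-Jmjd1a. Its rise of 0.10 on the log2 scale (standard error 0.040, adjusted p = 0.0349) was called without sh-Jmjd1a replicate 3 (0.14, adjusted p = 0.000357) but not when any of the other 5 libraries was left out (adjusted p = 0.0847 to 0.134). Akt2 (gene number 11652, chromosome 7 of mm9 from 28376571 to 28425845, plus strand), the form needed for insulin-driven glucose uptake in fat and muscle, was at 144, 152 and 142 CPM in sh-Empty and 103, 101 and 101 CPM in sh-Jmjd1a. All JMJD1A-KD libraries were lower, by 0.53 on the log2 scale, or to 0.691 of the control (standard error 0.049, adjusted p = 4.14e-10). Every fit that left out a library kept this call.

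Akt2 was at 120, 114 and 112 CPM with LacZ, 124, 122 and 115 with JMJD1A(WT) and 100.3, 107.8 and 100.3 with JMJD1A(Mut). The LacZ and JMJD1A(WT) groups overlapped (log2 fold change 0.06, 95% interval -0.04 to 0.16, adjusted p = 0.55), and all JMJD1A(Mut) libraries lay below both. Akt2 fell by 0.23 on the log2 scale from JMJD1A(WT) to JMJD1A(Mut) (standard error 0.050, adjusted p = 0.000548) and by 0.17 from LacZ to JMJD1A(Mut) (standard error 0.051, adjusted p = 0.0302). The latter was lost without LacZ replicate 1 (-0.14, adjusted p = 0.127), LacZ replicate 2 (-0.18, 0.0537), JMJD1A(Mut) replicate 1 (-0.15, 0.15) or JMJD1A(Mut) replicate 3 (-0.15, 0.122). Akt1 in the rescue set was at 373 to 392 CPM with LacZ, 360 to 365 with JMJD1A(WT) and 381 to 392 with JMJD1A(Mut). JMJD1A(WT) was lowest and did not overlap the others, but neither difference passed the test (-0.08, adjusted p = 0.235 against LacZ and 0.09, adjusted p = 0.0762 for JMJD1A(Mut) minus JMJD1A(WT)). The log2 ratio of Akt1 to Akt2 counts was 1.33 ± 0.060 in sh-Empty, 1.96 ± 0.044 in sh-Jmjd1a, 1.73 ± 0.084 with LacZ, 1.59 ± 0.064 with JMJD1A(WT) and 1.91 ± 0.080 with JMJD1A(Mut) (SD, n = 3 each).

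Tbc1d4 had the largest fall in the knockdown apart from the sparsely counted Slc2a4. AS160, its product, keeps GLUT4 vesicles inside the cell until Akt phosphorylates it. The gene (number 210789, chromosome 14 of mm9 from 101841577 to 102008408, minus strand) was at 112, 117 and 114 CPM in sh-Empty and 76.0, 71.7 and 75.5 CPM in sh-Jmjd1a. The groups were far apart, with a log2 change of -0.63, or 0.647 of the control (standard error 0.053, adjusted p = 7.55e-11). In the rescue set it was at 86.2, 84.4 and 87.0 CPM with LacZ, 82.7, 83.3 and 82.7 with JMJD1A(WT) and 78.0, 71.7 and 69.3 with JMJD1A(Mut). JMJD1A(WT) lay just below LacZ (log2 fold change -0.05, 95% interval -0.16 to 0.06, adjusted p = 0.671). JMJD1A(Mut) was lower than JMJD1A(WT) by 0.19 on the log2 scale (adjusted p = 0.0107) and fell by 0.24 against LacZ (standard error 0.056, adjusted p = 0.00373). The call against JMJD1A(WT) was lost without JMJD1A(Mut) replicate 2 (-0.17, adjusted p = 0.0525) or replicate 3 (-0.15, 0.0797). Tbc1d4 was the only one of the 3 lower genes in JMJD1A(Mut) against LacZ to remain called without LacZ replicate 1 or JMJD1A(Mut) replicate 3, which took the number of called members from 3 to 1.

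The promoter of Tbc1d4 (GRCm38.p6, chr14:101609192-101609441, minus strand) is shown because it had this fall. Capitals mark TTGCNNAA (a C/EBP motif), TGTTCT (a core letter run of glucocorticoid receptor sites, here on the other strand) and GGGCGG.
Tbc1d4: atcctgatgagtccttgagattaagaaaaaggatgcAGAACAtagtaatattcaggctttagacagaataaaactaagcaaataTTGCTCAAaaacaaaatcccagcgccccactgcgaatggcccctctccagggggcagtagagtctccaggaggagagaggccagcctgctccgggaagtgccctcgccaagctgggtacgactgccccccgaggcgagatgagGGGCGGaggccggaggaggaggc
Its GC content was 54.8%, near the median of all promoters. Counted from the start, the C/EBP match began at -166, the TGTTCT match at -214 and the GC box at -23, and 9.56%, 16.1% and 32.7% of all promoters hold these motifs. No E box or DR1 was in the window.

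Slc2a4 was close to the lower limit of these libraries. GLUT4, its product, is the insulin-responsive glucose transporter of fat and muscle. The gene (number 20528, chromosome 11 of mm9 from 69756045 to 69761690, minus strand) had 18, 17 and 22 counts in sh-Empty and 4, 3 and 1 in sh-Jmjd1a. With LacZ there were 6, 4 and 7 counts, with JMJD1A(WT) 27, 40 and 24, and with JMJD1A(Mut) 6, 0 and 1. The sh-Empty and JMJD1A(WT) libraries were high and did not overlap any other library. Summed over a group, the counts were 57 (95% exact Poisson interval 43.2 to 73.9), 8 (3.45 to 15.8), 17 (9.90 to 27.2), 91 (73.3 to 112) and 7 (2.81 to 14.4) for sh-Empty, sh-Jmjd1a, LacZ, JMJD1A(WT) and JMJD1A(Mut), covering counting error only. In JMJD1A(WT) the level was 1.99, 3.15 and 0.935 CPM, lowest in the deepest library and highest in replicate 2.

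The fall of Slc2a4 in JMJD1A-KD was -2.71 on the log2 scale (standard error 0.55, adjusted p = 0.000155) and the rise with JMJD1A(WT) over LacZ was 2.13 (standard error 0.52, adjusted p = 0.00422). From JMJD1A(WT) to JMJD1A(Mut) it changed by -3.20 (standard error 0.65, adjusted p = 0.0002), and by -5.21 without JMJD1A(Mut) replicate 1, which held 6 of the 7 counts, or -2.58 without JMJD1A(Mut) replicate 2, which held none. JMJD1A(Mut) and LacZ overlapped (-1.06, 95% interval -3.00 to 0.87, adjusted p = 0.579), so a difference was not detectable at this depth. That value was -3.07 without JMJD1A(Mut) replicate 1 and -0.44 without JMJD1A(Mut) replicate 2. Ratios of summed counts scaled to the libraries were 6.76 (95% interval 3.21 to 16.4) for sh-Empty over sh-Jmjd1a, 4.44 (2.63 to 7.95) for JMJD1A(WT) over LacZ and 9.48 (4.42 to 24.3) for JMJD1A(WT) over JMJD1A(Mut), covering counting error only. Since the gene passed the filter through its high groups, it had to differ among the groups, and with at least 10 counts required in every library it was not tested. By summed level, most of it Lpl, the adipocyte markers ranked sh-Empty, JMJD1A(WT) and LacZ, followed by sh-Jmjd1a and JMJD1A(Mut), which overlapped. Cd36 did not follow this order, as its mean was highest with JMJD1A(WT) and lower in sh-Empty than with LacZ. Slc2a1 (GLUT1), the transporter that works without insulin, was at 68.3 CPM in sh-Empty and 79.2 in sh-Jmjd1a, a rise of 0.20 on the log2 scale (standard error 0.057, adjusted p = 0.00468), and at 80.6, 74.8 and 85.6 CPM with LacZ, JMJD1A(WT) and JMJD1A(Mut). Per exon length, the mean level of Slc2a4 was 0.0658 to 0.714 RPKM over the groups, the lowest of the 9 genes.

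Cav1 was the most abundant of the 9 genes per exon length, at 347 to 416 RPKM over the groups, followed by Akt1 at 88.4 to 96.9 and Pik3r1 at 60.8 to 75.3 RPKM. Irs2 was at 33.3 to 42.2, Akt2 at 14.3 to 20.5, Tbc1d4 at 9.51 to 14.9, Irs1 at 6.92 to 12.3 and Insr at 8.88 to 10.1 RPKM. Cav1 (gene number 12389, chromosome 6 of mm9 from 17256335 to 17291452, plus strand) was at 1185, 1188 and 1202 CPM in sh-Empty and 1393, 1366 and 1354 CPM in sh-Jmjd1a. It rose by 0.19 on the log2 scale (standard error 0.034, adjusted p = 3.44e-05). With JMJD1A(WT) it was at 1225, 1304 and 1225 CPM, below LacZ at 1398, 1362 and 1422 CPM and JMJD1A(Mut) at 1420, 1467 and 1404 CPM. JMJD1A(WT) did not overlap the other groups of the rescue set. The log2 fold changes were -0.16 (standard error 0.033, adjusted p = 0.000753) for JMJD1A(WT) minus LacZ and 0.19 (standard error 0.033, adjusted p = 1.92e-05) for JMJD1A(Mut) minus JMJD1A(WT), while JMJD1A(Mut) and LacZ overlapped (0.03, 95% interval -0.03 to 0.10). Apart from Slc2a4, Cav1 was the member called in both the knockdown and the JMJD1A(WT) comparison, in opposite directions.

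All 15 libraries were then fitted together, to order the 5 groups on a single scale. Of the 32 pairs of neighbouring groups in the orders of the 8 genes other than Slc2a4, 8 differed at an adjusted p under 0.05. Over all 12758 genes tested, 6.98% to 48.9% were called, depending on the pair of groups. Neighbours are the groups with the closest observed means, so the count of 8 does not measure how far the groups differ. The orders, from the highest mean down, were sh-Empty, sh-Jmjd1a, JMJD1A(WT), LacZ and JMJD1A(Mut) for Insr, with no neighbours different, and LacZ, JMJD1A(WT), JMJD1A(Mut), sh-Jmjd1a and sh-Empty for Irs1, with only the last step different. For Irs2 (sh-Empty, JMJD1A(WT), LacZ, sh-Jmjd1a, JMJD1A(Mut)) and Akt1 (sh-Jmjd1a, JMJD1A(Mut), LacZ, sh-Empty, JMJD1A(WT)) no neighbours differed. Pik3r1 ran JMJD1A(WT), LacZ, JMJD1A(Mut), sh-Empty and sh-Jmjd1a, with the last 2 steps different. Akt2 ran sh-Empty, JMJD1A(WT), LacZ, JMJD1A(Mut) and sh-Jmjd1a, different between sh-Empty and JMJD1A(WT) and between LacZ and JMJD1A(Mut). Tbc1d4 ran sh-Empty, LacZ, JMJD1A(WT), sh-Jmjd1a and JMJD1A(Mut), different between sh-Empty and LacZ and between JMJD1A(WT) and sh-Jmjd1a. Cav1 ran JMJD1A(Mut), LacZ, sh-Jmjd1a, JMJD1A(WT) and sh-Empty, different only between sh-Jmjd1a and JMJD1A(WT). Slc2a4 ran JMJD1A(WT), sh-Empty, LacZ, sh-Jmjd1a and JMJD1A(Mut), different only between sh-Empty and LacZ. That step parts the groups through which Slc2a4 passed the filter from the rest, so it is no evidence of a difference.

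In that fit, JMJD1A(WT) cells differed from sh-Empty cells in 4 of the 8 genes other than Slc2a4 (45.6% of the 12758 genes tested). On the log2 scale, sh-Empty minus JMJD1A(WT) was -0.83 for Irs1 and -0.19 for Pik3r1 (adjusted p = 1.34e-17 and 7.54e-05), and it was 0.28 for Akt2 and 0.46 for Tbc1d4 (adjusted p = 2.11e-06 and 1.16e-10). Slc2a4 and Cav1 did not pass the test between these groups (sh-Empty minus JMJD1A(WT) of -0.26 and -0.07, adjusted p = 0.586 and 0.0797). The JMJD1A-KD cells of the knockdown and rescue sets also differed: sh-Jmjd1a against LacZ called 4 of 8 (6.98% of all genes), with differences sh-Jmjd1a minus LacZ of -0.21 for Irs1, -0.24 for Pik3r1, -0.18 for Akt2 and -0.21 for Tbc1d4. The additional vector and any other difference in how the sets were made cannot be told apart. Of the same 8 genes, sh-Empty differed from sh-Jmjd1a in 7 (44.8% of all genes), from LacZ in 6 (46.3%) and from JMJD1A(Mut) in 7 (48.9%). Sh-Jmjd1a differed from JMJD1A(WT) in 6 (15.7%) and from JMJD1A(Mut) in 2 (9.34%). Insr was lower with JMJD1A(Mut) in both of the comparisons with the knockdown set, by the same quasi-likelihood F test. Sh-Empty minus JMJD1A(Mut) was 0.18 (adjusted p = 0.00812) and sh-Jmjd1a minus JMJD1A(Mut) was 0.18 (adjusted p = 0.0492). Within the rescue set the counts in this fit were 1 for LacZ against JMJD1A(WT) (9.37%), 3 for LacZ against JMJD1A(Mut) (9.24%) and 5 for JMJD1A(WT) against JMJD1A(Mut) (23.7%).

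Of 112 other genes of insulin signalling, GLUT4 traffic and caveolae, 105 were tested. In JMJD1A-KD 24 rose and 36 fell (57.1%, against 46.2% of all genes), with a median log2 fold change of -0.08. Among the receptors, substrates and adaptors 2 rose and 8 fell of 12 (83.3%), including Sh2b2 (APS, an adaptor of the receptor, -1.30). Of 6 PI3K subunits, Pik3c2a alone was called (0.23), a share of 16.7% and so below that of all genes. Of 11 kinases of the Akt and mTOR branch 2 rose and 4 fell (54.5%, near the share of all genes), among them Mtor (-0.39). Of 16 Akt substrates and effectors 75% were called. Of these 5 rose, with Pde3b (phosphodiesterase 3B, which limits lipolysis) at 1.16. The other 7 fell, with Acly (ATP citrate lyase, which supplies acetyl-CoA for lipid synthesis) at -1.52. Of 13 brakes on the signal 5 rose, including Trib3 (1.76) and Trib2 (0.70), pseudokinases of the Tribbles family, and 2 fell (53.8%, near the share of all genes). All 4 genes of glucose transport and its first step were called, with Hk1 up (0.46) and Hk2, the insulin-responsive hexokinase, down (-0.77).

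Among 14 cargo and sorting genes of the GLUT4 vesicle 4 rose and 4 fell in JMJD1A-KD (57.1%, against 46.2% of all genes), with Sort1 (sortilin, needed to form the vesicles) at -1.05 and Gga2 at -0.44. Of 21 motors, tethers and fusion genes 3 rose and 6 fell (42.9%, below that share), with Nsf at -0.47 and Myo5a at -0.22. Of the 8 other caveola genes 3 fell and none rose (37.5%, also below it), namely Cavin1 (-0.52), Ehd2 (-0.53) and Cavin2 (-0.93), while Cav1 itself rose. Cavin1 is the coat protein of caveolae, and it was at 1045 CPM in sh-Empty and 734 in sh-Jmjd1a.

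With JMJD1A(WT) against LacZ, 12 of the 105 genes rose and 3 fell (14.3%, against 9.5% of all genes; median 0.002). Those that rose included Sh2b2 (0.44), Cavin2 (1.04), Cavin1 (0.23), Sgk1 (0.22), Pik3r3 (0.19), Pde3b (0.47), Exoc1 (0.20) and Trarg1 (1.01, an adipocyte protein of the GLUT4 vesicle at 1.89 to 3.74 CPM), and those that fell were Pik3r2 (-0.17), Inpp5k (-0.39) and Eif4ebp1 (-0.18). Trarg1 had also been higher in JMJD1A-KD (0.95, adjusted p = 0.0292), at 1.25 CPM in sh-Empty and 2.43 in sh-Jmjd1a. JMJD1A(Mut) against JMJD1A(WT) gave 9 higher and 19 lower (26.7%, against 23.8%; median -0.02). Among the lower were Sh2b2 (-0.88), Cavin2 (-1.92), Cavin1 (-0.38), Trarg1 (-1.70), Sort1 (-0.94), Hk2 (-0.34), Pdpk1 (-0.24), Rps6kb1 (-0.21), Acly (-0.20) and Pfkfb3 (-0.28). Among the higher were Pik3r2 (0.21), Pik3cd (1.19), Inpp5k (0.53, a lipid phosphatase), Hk1 (0.20), Sec16a (0.27) and Napa (0.23). Some of the larger of these changes were in genes at low levels. Trarg1 was at 1.16 CPM with JMJD1A(Mut), and Pik3cd was at 1.87 CPM with JMJD1A(WT) and 4.57 with JMJD1A(Mut). Sort1 was at 8.16 CPM with JMJD1A(WT) and 4.28 with JMJD1A(Mut). Against LacZ, JMJD1A(Mut) gave 3 higher and 11 lower (13.3%, against 9.24%; median -0.03), with Sh2b2 (-0.44), Cavin2 (-0.88), Cavin1 (-0.15), Sort1 (-0.73), Hk2 (-0.20), Pik3c2a (-0.18) and Rac1 (-0.15) lower and Mtor (0.19), Foxo3 (0.29) and Sec16a (0.18) higher. The number of called genes in that comparison was 9 without LacZ replicate 3 or JMJD1A(Mut) replicate 3 and 6 without JMJD1A(Mut) replicate 1. Sh2b2 and Cavin2 are also in a list that the study chose on these libraries and are no independent evidence of a direction. The same holds for the markers Pparg, Fabp4, Cidec and Dlk1 and for A530016L24Rik, named below beside Slc2a4, which are in that list too. It also holds for the marker Cebpa, which the study names in a wider set chosen on these libraries, from which the list was drawn. Not all genes of the wider set are named in the study, so others reported here may belong to it.

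**Figure D4:**
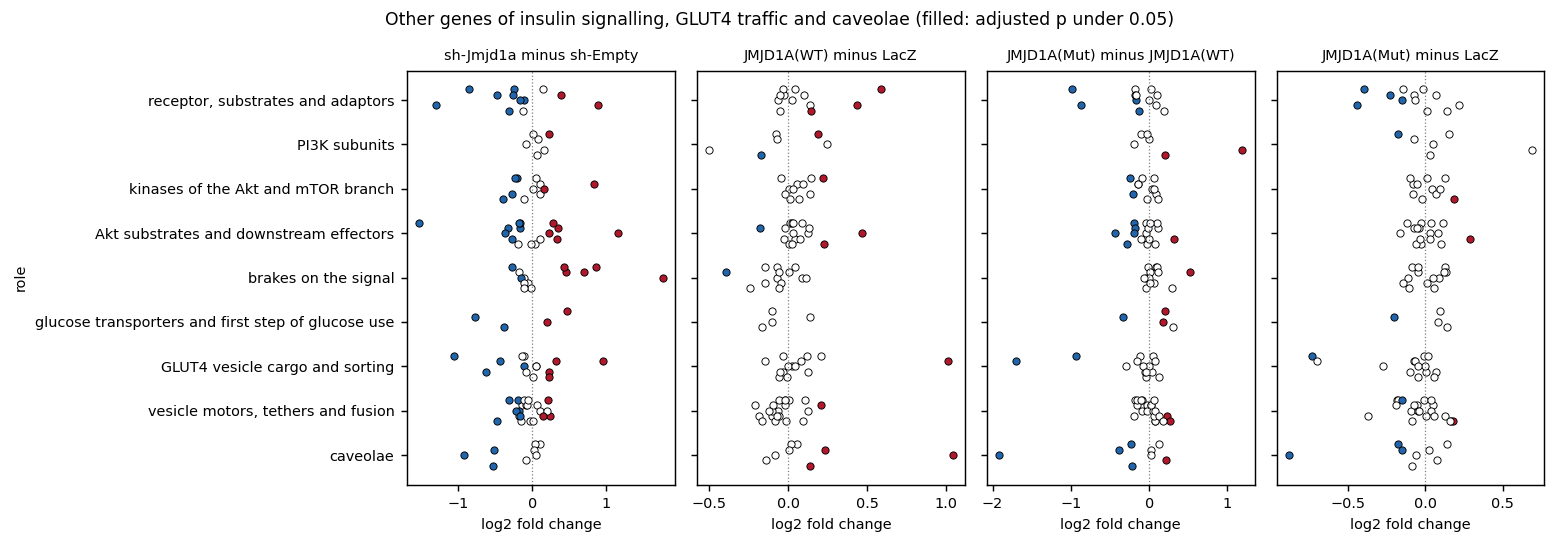
Log2 fold changes (x axis, scaled for each panel) of the 105 tested genes of the pathway list other than the 9, by role (y axis), in the 4 comparisons. Each point is 1 gene, filled where the adjusted p is under 0.05 (red higher, blue lower). The knockdown panel holds 24 red and 36 blue points and the JMJD1A(WT) panel 12 and 3.

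The genes whose levels ran most like those of the 9 were taken from 10107 others with a mean of at least 5 CPM, by Pearson's r of log2 CPM over the 15 libraries. These r values are descriptions, since the libraries fall into 5 groups and share their scaling. Irs1 ran most like Fn1 (fibronectin, r = 0.98), which is in the fibroblast marker list, and Lpar4 (0.98). Akt2 ran like Adam12 (0.98). Tbc1d4 ran like Bcar3 (0.98) and Plcb1 (0.98), and Cav1 like Sdcbp (0.97) and Sec24d (0.96). For Slc2a4 they were A530016L24Rik (0.95) and Ptdss1 (0.93), for Pik3r1 Col6a3 (0.93) and Pcyt1a (0.90), and for Irs2 Usf3 (0.91) and Ccdc124 (0.91). Akt1 was nearest to Rps20 (0.91) and Fam162a (0.91), and Insr to Tent4b (0.89) and Tada1 (0.85).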

How the data were processed

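Reads were trimmed with fastp, mapped on mm9 by HISAT2 and assigned to genes by featureCounts. The raw counts that the authors deposited, 1 file per library, carried no normalization. Libraries were made from poly(A) RNA. Counts were joined by gene number: 24191 of 26301 had a symbol, and mm9 positions and exon lengths came from GENCODE M1. Promoters came from RefSeq on GRCm38.p6, with 13 windows for 7 of the 9 genes and no entry for Insr and Slc2a4.

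Differences were fitted with edgeR 4.0.16 (R 4.3.3) on the counts, with TMM, filterByExpr (minimum count 10), robust quasi-likelihood F tests and Benjamini-Hochberg adjustment over all genes tested (adjusted p under 0.05). Separate fits, with no block, were made for the 6 libraries of the knockdown set and the 9 of the rescue set. On simulated data, 89.4% to 93.4% of 200 genes changed 2-fold were recovered in the 4 comparisons and 1.61% to 6.77% of the calls were false. All other genes were left unchanged there and no smaller change was simulated. These rates therefore do not cover the smaller changes of the 8 genes other than Slc2a4. Ratios used a pseudocount of 0.5 and are given as descriptions, since the pairs were chosen with their changes known and an exact permutation test of 3 against 3 cannot go below p = 0.1. Replicates differed by more than sampling noise (chi-square per degree of freedom 2.07 to 5.44), so each counted as 1. The alternatives included RLE size factors and DESeq2 1.42.0. The members and lists were chosen with earlier results of these data known. Named genes are the 9 members, the pathway genes with the smallest adjusted p of each role and comparison (at most 2, with Trarg1 and Cavin2 in the knockdown added after their values were seen), Igf1r and Slc2a1 as partners in the ratios, the most alike genes, Kdm3a and the markers. Results for some genes that this rule names are not reported here.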

Additional observations from a re-analysis of the deposited data

How the results depend on the processing

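Over all settings, 600 of 642 results for single members kept their direction and side of the threshold, 27 lost the threshold, 1 gained it and 14 turned in direction, none of them called. With at least 10 counts in every library, 1 member was called for JMJD1A(WT) against LacZ, since Slc2a4 was not tested. At an adjusted p under 0.01, 733 genes were called for JMJD1A(WT) against LacZ, and for JMJD1A(Mut) against LacZ 1 member, 6 pathway genes and 576 genes. Leaving out each library in turn gave 1 to 3 members, 6 to 14 pathway genes and 674 to 1256 genes for JMJD1A(Mut) against LacZ.

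The turned values were all near 0. Irs1 for JMJD1A(WT) minus LacZ was -0.00024 with RLE, -0.0016 with DESeq2, -0.0038 without a filter, -3.9e-05 with all 15 libraries and -0.0006964 with the legacy method, and -0.0336 to 0.0599 when each library was left out. Leaving out libraries also gave Insr -0.0595 to 0.0276 in the knockdown and -0.0033 to 0.12 for JMJD1A(WT) minus LacZ, and, for JMJD1A(Mut) minus LacZ, Pik3r1 -0.0457 to 0.0067 and Akt1 -0.0052 to 0.0317. The cause was not tested.

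Correlations between samples with the same replicate number were -0.087 to 0.097, under 0.1 in every pair. The main fits did not pair the samples by these numbers. In the order of the report, 2, 4, 5 and 4 of 6 libraries correlated best with their own number, more in the rescue set than in the knockdown. Whether libraries with the same number shared any handling was not tested. With the replicate block, the members called, Slc2a4 included, were 7, 2, 7 and 3 (8, 2, 6 and 3 without it). Slc2a4, which had to differ among the groups, was in these counts in all comparisons but the last, with and without the block. The genes called were 5425, 1393, 3283 and 1413 with the block, and 5672, 1193, 2985 and 1160 without it. They were called out of 12272 genes tested in the knockdown and 12557 in the rescue set. Akt1 was no longer called in the knockdown (adjusted p = 0.0746) and was called for JMJD1A(Mut) against JMJD1A(WT) (0.0418). Thinning all libraries to the smallest total, chosen after the data were seen, changed no call of a member. Slc2a4 had 0 to 40 counts per library, which limits the precision of its values.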
